A study of Mus musculus with 12 samples.

Results

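The genes described here are 10 genes of the endoplasmic reticulum (ER), measured in smooth muscle cells (SMCs) of the mouse thoracic aorta. They are the lectin chaperones *Canx* and *Calr*, the disulfide isomerases *Pdia3* and *Pdia4*, the chaperones *Hspa5* and *Hsp90b1*, the coat proteins *Sec23a* and *Sec24d*, and the transcription factors *Creb3l1* and *Xbp1*. They were chosen by name, with earlier results of these data known. The rows used are those of the deposited count matrix whose Ensembl identifier carries one of these symbols, and all 10 of the 10 were found among 52636 genes. GFPiSMC mice carry an inducible Cre recombinase driven by the *Myh11* promoter and a reporter that turns on GFP in cells where Cre was active. Tgfbr1/2iSMCKO mice carry in addition floxed alleles of *Tgfbr1* and *Tgfbr2*, the receptors for TGF-β. Mice of both genotypes, on a C57BL/6J background, received tamoxifen over 5 days and were studied at 12 weeks of age. The labels name doses of 1 and 2 mg/d and induction at 4 and 11 weeks of age. The methods tie 2 mg/d to induction at 11 weeks. The study describes these cells as taken 1 week after signaling was disrupted in mature aortas, and elsewhere counts such a week from the start of tamoxifen. All mice were male, since the Cre transgene lies on the Y chromosome. Viable GFP+ cells were sorted from the ascending aorta with the arch (ASC) and from the descending thoracic aorta (DESC) after cold enzymatic digestion. Each of the 4 groups of genotype and segment has 3 libraries of 9208 to 20000 cells, and libraries that share a genotype and a number were taken as segments of one mouse. The mouse line and the receptor deletion go together in these groups and cannot be told apart.

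Proteins that SMCs secrete, among them collagens and elastin, are translated into the ER, fold there with the help of chaperones, and leave in vesicles coated with the COPII complex. Calnexin (*Canx*, in the membrane) and calreticulin (*Calr*, in the lumen) hold newly made glycoproteins through their sugars, and the isomerase *Pdia3* works beside them. The product of *Hspa5*, BiP, binds unfolded chains and *Hsp90b1* encodes GRP94, a late-acting chaperone of selected client proteins. When unfolded proteins accumulate, the unfolded protein response raises many of these genes through factors that include XBP1.

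The 12 libraries held 20467027 to 31392396 counts each, and the 10 genes had between 474 and 52452 counts in every library, so that counting error was small beside the spread between libraries. Levels are given as CPM, counts relative to the library size after scaling with TMM factors, which ran from 0.91 to 1.08. Summed CPM of 8 smooth muscle markers was 41420 to 49460 in GFPiSMC and 36130 to 44810 in Tgfbr1/2iSMCKO, and every one of these markers was detected. Summed levels of 8 endothelial markers stayed between 56.6 and 107 CPM and of 8 macrophage markers between 7.64 and 26.9 CPM. Those of 8 lymphocyte and plasma cell markers were 12.0 to 18.7 CPM in GFPiSMC and 7.23 to 12.6 CPM in Tgfbr1/2iSMCKO in ASC, and 13.7 to 21.3 CPM and 4.80 to 16.2 CPM in DESC, lower with the deletion by median in both segments (17.7 against 8.30 and 16.3 against 6.64 CPM). Only 4 of these 8 markers were tested singly. Their log2 fold changes by edgeR were −0.94 for *Sdc1*, −0.50 for *Ms4a1*, 0.02 for *Jchain*, and −0.0005 for *Cd79a*, and none passed. Fibroblast markers summed to 81.5 to 237 CPM in ASC and 18.5 to 42.1 CPM in DESC, with overlap between the genotypes in both segments. The part of these cells in the results was not tested. Counts for the targeted genes cover the whole gene and not the floxed exons alone. By this measure *Tgfbr2* was 88.9 to 128 CPM in GFPiSMC and 68.2 to 102 CPM in Tgfbr1/2iSMCKO (log2 fold change −0.26 ± 0.11 SE, adjusted p = 0.233 by edgeR), and *Tgfbr1* was 196 to 292 and 198 to 295 CPM (0.10 ± 0.12, adjusted p = 0.79 by edgeR), so neither gene checks the genotype labels. In bulk samples, fewer cells of a type and less RNA per cell cannot be told apart.

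Promoters of the members are shown first, because several carry the element through which the unfolded protein response is known to act. RefSeq promoters on GRCm38.p6, each from 250 bases before to 50 bases after a gene start, were at hand for 9 of the 10 genes, all but *Creb3l1*, and those with a match to a searched motif are printed. The ER stress response element (ERSE, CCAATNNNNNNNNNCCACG on either strand), a site for ATF6 and XBP1 together with NF-Y, stood in 39 of 32851 promoters (0.119%). It stood in the promoters of *Hspa5*, *Calr*, *Hsp90b1*, and *Canx*, with 2 matches in *Hsp90b1*. The windows below run 5′ to 3′ along the gene, with the match in capitals and 25 bases on each side.

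Hspa5, chr2:34772000-34772068, plus strand: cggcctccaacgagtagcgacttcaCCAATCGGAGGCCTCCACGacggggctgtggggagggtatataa
Calr, chr8:84847050-84847118, minus strand: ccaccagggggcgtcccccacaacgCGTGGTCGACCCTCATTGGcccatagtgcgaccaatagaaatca
Hsp90b1 (distal match), chr10:86705613-86705681, minus strand: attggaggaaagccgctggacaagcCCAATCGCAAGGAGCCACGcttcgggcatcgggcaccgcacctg
Hsp90b1 (proximal match), chr10:86705508-86705576, minus strand: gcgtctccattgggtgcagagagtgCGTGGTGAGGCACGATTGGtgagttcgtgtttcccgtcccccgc
Canx, chr11:50325775-50325843, minus strand: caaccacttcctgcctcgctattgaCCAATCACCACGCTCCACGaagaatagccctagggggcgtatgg

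The matches began 65 bases (*Hspa5*), 162 bases (*Calr*), 212 and 107 bases (*Hsp90b1*), and 145 bases (*Canx*) before the RefSeq start. The *Calr* match and the proximal *Hsp90b1* match lie on the opposite strand. A shorter element bound by XBP1 (UPRE, TGACGTGG) stood in 222 promoters (0.676%) and was the element found at both COPII genes.

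Sec24d, chr3:123267445-123267495, plus strand: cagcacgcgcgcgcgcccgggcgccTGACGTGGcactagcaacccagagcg
Sec23a, chr12:59011993-59012022, minus strand: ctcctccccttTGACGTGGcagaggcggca

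The *Sec24d* match began 26 bases before the start, and the *Sec23a* match began at base 7 after it, where 30 bases are shown. ERSE-II (ATTGGNCCACG, 0.0365% of promoters), the cyclic AMP response element (CRE, TGACGTCA, 1.79%), and the Smad-binding CAGA box (AGCCAGACA, 0.387%) had no match in the promoters of the members at hand. CCACG is common to ERSE, ERSE-II, and the opposite strand of UPRE, and UPRE and CRE share their first letters. A match describes the letters and not binding, and no binding data were measured here.

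Per kilobase of exon, the scale on which genes can be compared, *Pdia3* was the most abundant of the 10 transcripts and *Creb3l1* the least in all 4 groups. In GFPiSMC ASC, *Pdia3* stood at 358 ± 81.4 CPM per kb (mean ± SD, n = 3) and *Hspa5* at 273 ± 90.1, values that differ by less than their spread. *Hsp90b1* (170 ± 33.0), *Canx* (163 ± 5.34), *Calr* (123 ± 32.5), and *Xbp1* (107 ± 13.8) followed. *Hsp90b1* and *Canx*, and likewise *Calr* and *Xbp1*, differed by less than their spread. *Sec23a* (70.2 ± 7.79), *Sec24d* (46.6 ± 6.02), and *Pdia4* (39.4 ± 17.1) were lower, the last of these with a spread that covers *Sec24d*, and *Creb3l1* was at 11.2 ± 2.18 CPM per kb. In Tgfbr1/2iSMCKO ASC the same scale gave 244 ± 43.8 for *Pdia3*, 179 ± 80.9 for *Hspa5*, 119 ± 9.04 for *Canx*, 110 ± 31.9 for *Hsp90b1*, and 54.8 ± 18.9 for *Xbp1*, which then stood level with *Sec23a* at 55.4 ± 4.70.

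The genotype comparison asks how loss of the TGF-β receptors goes along with the transcripts of the folding and export machinery, over 6 Tgfbr1/2iSMCKO against 6 GFPiSMC libraries with segment in the model. Transcripts of 6 of the 10 genes fell in Tgfbr1/2iSMCKO SMCs at an adjusted p under 0.05 by edgeR: *Canx*, *Calr*, *Pdia3*, *Hsp90b1*, *Sec24d*, and *Xbp1*. This fit enters both libraries of an animal as independent. In this comparison 3.23% of the 22320 genes tested were called lower and 1.8% higher, and no member was called higher. None of the 6 fell by more than 2-fold, where 1.64% of all genes were called lower. The median log2 fold change of the 10 genes was −0.62, against 0.04 over all genes tested, and 9 of the 10 estimates were negative. *Canx*, *Sec24d*, and *Xbp1* were lower in all 6 Tgfbr1/2iSMCKO libraries than in any GFPiSMC library, a separation that 2.89% of all genes showed. Summed over the 10 genes, the members made up 0.417% to 0.629% of scaled counts in GFPiSMC and 0.240% to 0.447% in Tgfbr1/2iSMCKO libraries. With counts summed per animal, edgeR called 0 of the 10, and 1.25% of all genes lower. Among 12698 genes averaging 50 counts or more over the 12 libraries, 686 were called lower and 471 higher. The same 6 members were called lower in that fit.

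**Figure D1:**
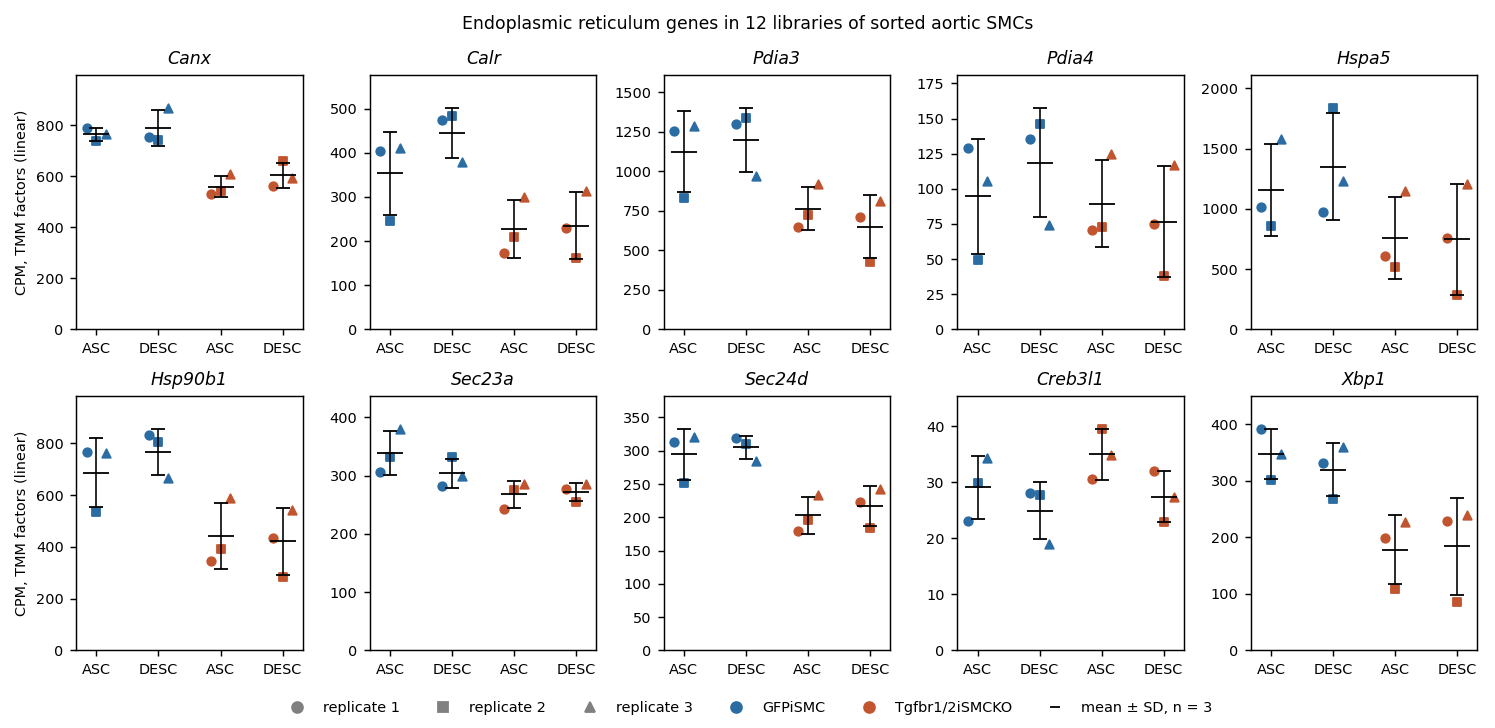
CPM of each of the 10 genes (linear axis from 0, TMM factors) in the 12 libraries, by genotype (colour), segment (axis), and replicate (marker), with mean ± SD of 3 libraries. *Canx*, *Sec24d*, and *Xbp1* do not overlap between the genotypes, whereas *Hspa5*, *Pdia4*, and *Creb3l1* overlap in both segments.

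*Canx* was the steadiest of the folding genes. In GFPiSMC replicates 1 to 3 it was at 787, 737, and 766 CPM in ASC and at 754, 741, and 868 CPM in DESC. In Tgfbr1/2iSMCKO it was at 529, 541, and 608 CPM in ASC and at 562, 658, and 591 CPM in DESC, so that the highest of these 6 libraries lay under the lowest GFPiSMC library. The log2 fold change was −0.42 ± 0.08 (SE), a level 1.33-fold lower (adjusted p = 0.00745 by edgeR). Its coefficient of variation within a group was 3.29% to 8.85%.

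*Calr*, the soluble relative of calnexin that also binds calcium, fell more and varied more. GFPiSMC libraries held 404, 245, and 411 CPM in ASC and 474, 483, and 380.0 CPM in DESC. Tgfbr1/2iSMCKO libraries held 173, 209, and 300 CPM in ASC and 230, 161, and 313 CPM in DESC. GFPiSMC ASC replicate 2 lay among the Tgfbr1/2iSMCKO libraries, and the other 5 GFPiSMC libraries lay above all of them. The log2 fold change was −0.78 ± 0.19, or 1.72-fold lower (adjusted p = 0.0314 by edgeR).

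*Pdia3*, the thiol oxidoreductase that partners with both lectins, was at 1258, 831, and 1287 CPM in GFPiSMC ASC and at 1299, 1336, and 969 CPM in GFPiSMC DESC. In Tgfbr1/2iSMCKO it was at 651, 726, and 917 CPM in ASC and at 713, 425, and 811 CPM in DESC. Only Tgfbr1/2iSMCKO ASC replicate 3 exceeded the lowest GFPiSMC library, again ASC replicate 2. It fell by 0.72 ± 0.17 on the log2 scale, 1.65-fold (adjusted p = 0.0282 by edgeR).

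*Pdia4*, a disulfide isomerase found in complexes with BiP and GRP94, overlapped widely. Its GFPiSMC libraries ranged from 49.4 to 146 CPM and its Tgfbr1/2iSMCKO libraries from 38.1 to 125 CPM, with both minima in a replicate 2 library. The log2 fold change of −0.36 (95% interval −1.02 to 0.30) did not pass (adjusted p = 0.685 by edgeR), and the interval includes the change seen for *Pdia3*. The estimate was −0.18 without Tgfbr1/2iSMCKO DESC replicate 2, −0.23 without GFPiSMC DESC replicate 2, −0.12 without Tgfbr1/2iSMCKO replicate 2, −0.17 without GFPiSMC replicate 1, and −0.74 without Tgfbr1/2iSMCKO replicate 3, none of them called.

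*Hspa5* showed the widest spread of the abundant members. It stood at 1018, 858, and 1583 CPM in GFPiSMC ASC and at 975, 1839, and 1229 CPM in GFPiSMC DESC. In Tgfbr1/2iSMCKO it stood at 606, 515, and 1148 CPM in ASC and at 762, 283, and 1204 CPM in DESC. Both libraries of Tgfbr1/2iSMCKO replicate 3 lay within the GFPiSMC range, and the other 4 lay below every GFPiSMC library. The log2 fold change was −0.73 with a 95% interval of −1.40 to −0.05 and did not pass the adjustment over all genes (adjusted p = 0.26 by edgeR). Without replicate 3 of Tgfbr1/2iSMCKO it was −1.22 (adjusted p = 0.0341 by edgeR), the only 1 of 30 alternatives that called it, and without replicate 2 it was −0.42 (adjusted p = 0.438).

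*Hsp90b1* was at 766, 533, and 761 CPM in GFPiSMC ASC and at 832, 803, and 667 CPM in GFPiSMC DESC. It was at 345, 393, and 588 CPM in Tgfbr1/2iSMCKO ASC and at 436, 285, and 542 CPM in Tgfbr1/2iSMCKO DESC. The overlap came from GFPiSMC ASC replicate 2 and the replicate 3 libraries of Tgfbr1/2iSMCKO. It fell by 0.75 ± 0.17 on the log2 scale, 1.68-fold (adjusted p = 0.0228 by edgeR). *Hsp90b1* shares its locus with a microRNA gene, a processed transcript, and *1810014B01Rik* on the other strand, which had 530 to 1675 counts a library, and the library kit does not mark strand, so that reads of overlapping genes cannot be told apart.

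The COPII coat consists of an inner layer, in which SEC23 and SEC24 proteins select cargo and bend the membrane, and an outer cage. *Sec24d* encodes a cargo-binding subunit. It was at 312, 251, and 321 CPM in GFPiSMC ASC and at 319, 311, and 285 CPM in GFPiSMC DESC. Tgfbr1/2iSMCKO libraries were at 179, 196, and 234 CPM in ASC and at 223, 184, and 243 CPM in DESC, all below the lowest GFPiSMC library. The fall was 0.52 ± 0.11 on the log2 scale, 1.43-fold (adjusted p = 0.0116 by edgeR). *Sec23a*, the subunit that activates the GTPase of the coat, ranged from 282 to 380 CPM in GFPiSMC and from 242 to 286 CPM in Tgfbr1/2iSMCKO. Its log2 fold change of −0.25 (95% interval −0.45 to −0.05) did not pass (adjusted p = 0.178 by edgeR). An antisense gene at the *Sec23a* locus had 45 to 113 counts a library.

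*Xbp1* encodes the factor that becomes active after its messenger is spliced by IRE1. Gene counts do not separate the spliced from the unspliced form. It was at 392, 302, and 348 CPM in GFPiSMC ASC and at 332, 268, and 360 CPM in GFPiSMC DESC. Tgfbr1/2iSMCKO libraries were at 198, 109, and 227 CPM in ASC and at 228, 84.8, and 239 CPM in DESC. All 6 lay under the lowest GFPiSMC library, and both libraries of Tgfbr1/2iSMCKO replicate 2 were far below the rest. The log2 fold change was −0.88 ± 0.24, 1.84-fold lower, the largest estimate of the 10 genes and the one nearest the threshold among those called (adjusted p = 0.0499 by edgeR). Without Tgfbr1/2iSMCKO replicate 2 it was −0.58 (adjusted p = 0.0212).

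*Creb3l1* (OASIS), an ER-anchored factor that is cleaved in the Golgi and is known for driving collagen genes in bone, was the only member with a positive estimate. It ranged from 19.0 to 34.4 CPM in GFPiSMC and from 22.9 to 39.6 CPM in Tgfbr1/2iSMCKO. The log2 fold change of 0.20 (95% interval −0.14 to 0.55) did not pass (adjusted p = 0.651 by edgeR), and it was 0.13 without GFPiSMC ASC replicate 1. Averaged over both libraries, each Tgfbr1/2iSMCKO animal (31.1 to 31.3 CPM) was above each GFPiSMC animal (25.6 to 28.7 CPM), as were 8.84% of all genes.

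The unit of replication is the animal. When the libraries of an animal were averaged, 7 members were lower in every Tgfbr1/2iSMCKO than in every GFPiSMC animal, where 9.99% of all genes were. These were the 6 called genes and *Sec23a*. Counts summed per animal before the edgeR fit gave nearly the same estimates, with a median of −0.61, but called 0 of the 10. In that fit 1.25% of all genes were called lower, and the members had adjusted p values from 0.113 for *Pdia3* to 0.787 for *Pdia4*. With 1 animal left out at a time, between 0 (without GFPiSMC replicate 3 or Tgfbr1/2iSMCKO replicate 1) and 7 members (without Tgfbr1/2iSMCKO replicate 3) were called. *Canx* was lost only in those fits with 0 calls. *Sec24d* was lost there and also without GFPiSMC replicate 1 or Tgfbr1/2iSMCKO replicate 2. Both genes were called whichever single library was left out, but such a fit keeps the other library of that animal.

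Within a genotype, the members did not vary independently. GFPiSMC ASC replicate 2 was the lowest of 6 for 7 of the 10 genes, and Tgfbr1/2iSMCKO DESC replicate 2 was the lowest of 6 for 7 of the 10. Both libraries of Tgfbr1/2iSMCKO replicate 3 were the highest of 6 for 4 genes each. The 5 soluble lumenal members (*Calr*, *Pdia3*, *Pdia4*, *Hspa5*, *Hsp90b1*; grouped after their values were seen) deviated from their genotype's mean by −0.61 on the log2 scale in GFPiSMC ASC replicate 2 and by −0.80 in Tgfbr1/2iSMCKO DESC replicate 2. They deviated by 0.56 and 0.51 in the ASC and DESC libraries of Tgfbr1/2iSMCKO replicate 3. Over 7358 well-expressed genes, the deviation of a library from its genotype's mean also followed the GC content of the gene, with Spearman's rho of −0.35 and −0.44 in those low libraries and of 0.33 and 0.30 in those high ones. Other libraries had rho between −0.31 and 0.37. GC content was 42.9% for *Hsp90b1* and between 46.9% and 50.5% for the other lumenal members, against 42.4% for *Canx*. The part of GC content in the members' deviations was not tested. With a GC trend removed from every library, an alternative added after these values were seen, the same 6 members were called lower, beside 3.32% of all genes.

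**Figure D2:**
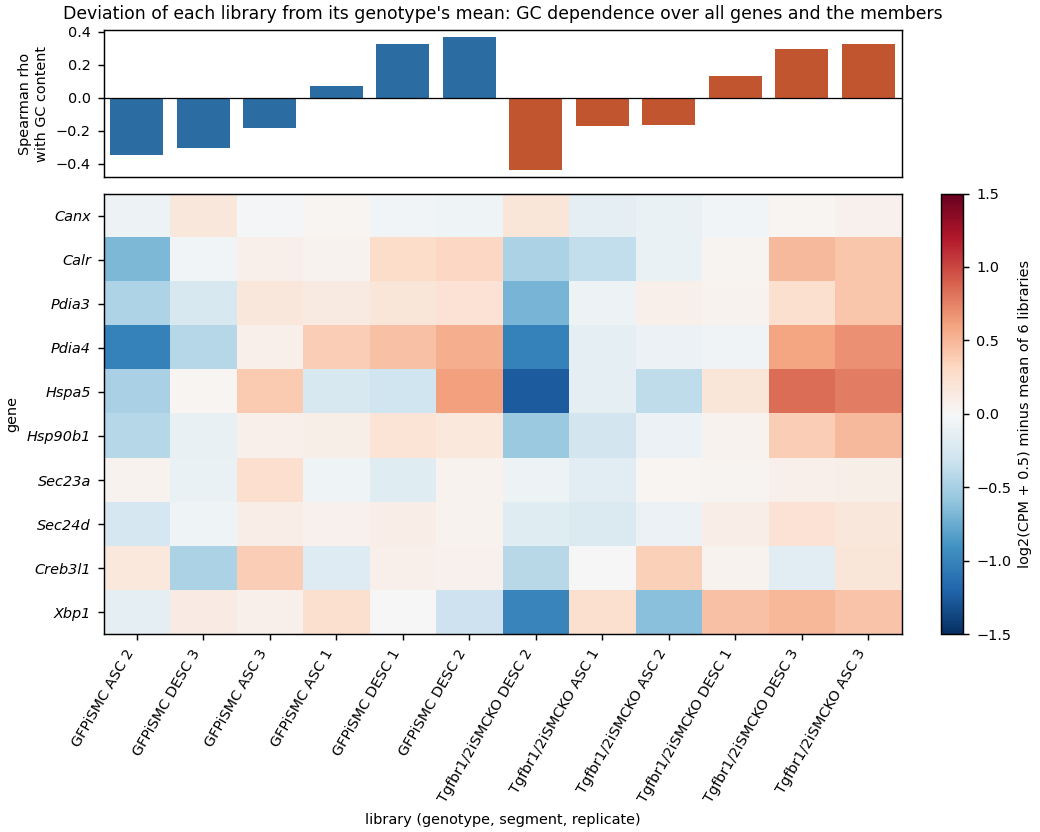
Upper panel, Spearman's rho across 7358 genes between GC content and the deviation of a library from the mean of its genotype. Lower panel, the deviation of each member, as log2(CPM + 0.5) minus the mean of the 6 libraries of its genotype, with libraries ordered by rho within a genotype: the 5 soluble lumenal members were lowest in GFPiSMC ASC 2 and Tgfbr1/2iSMCKO DESC 2, whereas *Canx* was highest of its 6 in the latter.

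The genotype effect was next estimated in each segment, with 3 against 3 libraries and a spread shared by all 12. In ASC, log2 fold changes ran from −0.96 for *Xbp1* to 0.27 for *Creb3l1*, with a median of −0.55. By edgeR 0 of the 10 passed in ASC (1.01% of all genes were called lower), 7 had an unadjusted p under 0.05, the smallest adjusted p was 0.107 for *Canx*, and DESeq2 also called 0. *Canx*, *Sec23a*, *Sec24d*, and *Xbp1* had separated libraries in ASC, as 10.1% of all genes did in this direction. In DESC, log2 fold changes ran from −0.93 for *Calr* to 0.14 for *Creb3l1*, with a median of −0.71. By edgeR 0 of the 10 passed in DESC (1.21% of all genes were called lower), 6 had an unadjusted p under 0.05, the smallest adjusted p was 0.127 for *Pdia3*, and DESeq2 also called 0. *Calr*, *Canx*, *Hsp90b1*, *Pdia3*, *Sec24d*, and *Xbp1* had separated libraries in DESC, as 7.75% of all genes did in this direction. Without Tgfbr1/2iSMCKO replicate 3, *Calr* and *Hsp90b1* were called in DESC. With 3 against 3 libraries an exact permutation test of a single gene cannot give a two-sided p below 0.1.

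**Figure D3:**
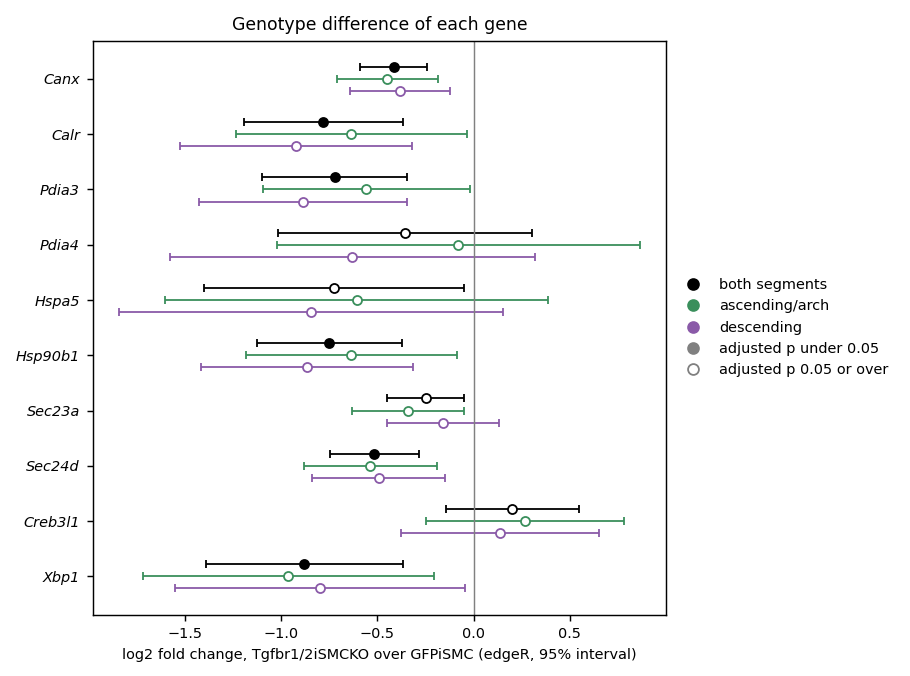
Log2 fold change of each gene in Tgfbr1/2iSMCKO over GFPiSMC SMCs with its 95% interval, over both segments (black), in ASC (green), and in DESC (purple), with filled symbols at an adjusted p under 0.05 by edgeR. The 6 filled symbols are all over both segments, between −0.88 and −0.42, and every ASC interval overlaps the DESC interval of the same gene.

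The difference between the segments in the genotype effect was tested as an interaction. For *Pdia4*, the gene with the largest difference, the effect was −0.08 in ASC and −0.63 in DESC, a difference of −0.55 with a 95% interval of −1.89 to 0.78. For *Canx* and *Sec24d* the effects were close in both segments, at −0.45 and −0.38 for *Canx* and at −0.54 and −0.49 for *Sec24d*, with differences of 0.06 (95% interval −0.30 to 0.43) and 0.04 (−0.44 to 0.53). No member passed by edgeR or DESeq2, 0 had an unadjusted p under 0.05, and 0.0% of all genes were called. The intervals leave room for differences as large as the genotype effects themselves.

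Segments were also compared within a genotype. In GFPiSMC SMCs, *Calr* was at 353 ± 93.6 CPM (SD, n = 3) in ASC and 445 ± 56.8 CPM in DESC, the largest estimate of the 10 at 0.33 on the log2 scale (95% interval −0.26 to 0.93). *Sec23a* (−0.16), *Creb3l1* (−0.22), and *Xbp1* (−0.12) had lower estimates in DESC, and the other members had higher ones. In Tgfbr1/2iSMCKO SMCs the estimates for DESC against ASC ran from −0.35 for *Creb3l1* to 0.11 for *Canx*. By edgeR and DESeq2, 0 members passed in either genotype and 0 had an unadjusted p under 0.05, where 0.376% of all genes were called in GFPiSMC and 0.112% in Tgfbr1/2iSMCKO.

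The wider pathway was described by lists around each role, compared over both segments by edgeR with the same threshold. Of all genes tested, 3.23% were called lower and 1.8% higher. With counts summed per animal, 304 of 24275 genes (1.25%) were called lower and 147 higher. In the calnexin cycle, 3 of 9 genes fell, and all 3 are members (*Canx*, *Calr*, *Pdia3*), with a list median of −0.41. None of the 9 was called with counts summed per animal or when scaled by library size alone. Among BiP and GRP94 with their cofactors, 3 of 15 fell, none rose, and the median was −0.32. Beside *Hsp90b1*, these were *Manf*, an ER-resident factor that binds BiP (−1.11 ± 0.16, 2.16-fold lower, adjusted p = 0.000693), and *Dnajc3*, a cochaperone of BiP (−0.84 ± 0.13, adjusted p = 0.00122). These 2 also passed with counts summed per animal, at adjusted p = 0.0246 and 0.035, and *Hsp90b1* did not.

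Among 16 disulfide isomerases and oxidases, 4 fell and 1 rose, with a median of −0.38 and 15 negative estimates. *Tmx4* (−0.42 ± 0.09), *Txndc11* (−0.77 ± 0.17), and *Txndc5* (−1.04 ± 0.25), all of the thioredoxin family, fell beside *Pdia3*. The gene that rose was *Ero1lb*, an oxidase that passes disulfide bonds to the isomerases (1.74 ± 0.27, 3.35-fold higher, adjusted p = 0.00167). This rise ran against the other members of its list. With counts summed per animal, *Txndc5* (adjusted p = 0.0277) and *Ero1lb* (adjusted p = 0.0115) were the calls left by edgeR.

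Genes of transport and of entry into the ER were described next. Of 18 genes of the COPII coat and exit sites, *Sec24d* alone passed, the median was −0.15 (−0.03 when scaled by library size alone), and 17 estimates were negative. Of 21 cargo and KDEL receptors 3 fell, with a median of −0.29: *Tmed3*, a p24 cargo protein (−0.67 ± 0.10, adjusted p = 0.000779), *Kdelr3*, which returns ER residents from the Golgi (−0.67 ± 0.15), and *Sec22b*, a vesicle SNARE (−0.47 ± 0.11). Of 11 genes of the COPI coat, which carries vesicles back to the ER, *Arf4* fell (−0.44 ± 0.11), with a median of −0.24. Of 25 genes of the translocon and N-glycosylation, 3 fell and 1 rose, with a median of −0.22. *Stt3b*, a catalytic subunit of oligosaccharyltransferase, fell (−0.89 ± 0.14, adjusted p = 0.00206), as did *Magt1* (−0.71 ± 0.14) and *Sec61b*, a subunit of the translocon channel (−0.63 ± 0.15). *Ssr1*, a translocon-associated protein, rose by 0.80 ± 0.08 (1.74-fold, adjusted p = 4.3e-05). With counts summed per animal, *Tmed3* (adjusted p = 0.0345), *Stt3b* (0.038), and *Ssr1* (0.00845) were the calls left among these 4 lists by edgeR.

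**Figure D4:**
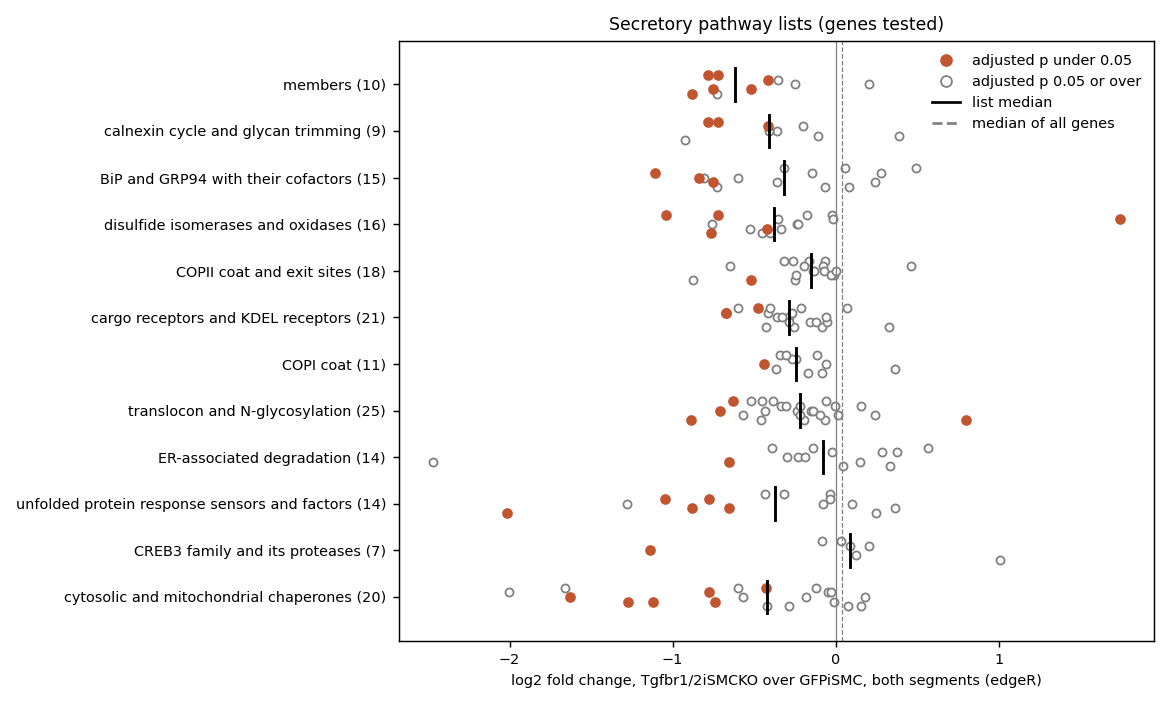
Log2 fold change of each tested gene (Tgfbr1/2iSMCKO over GFPiSMC, both segments, edgeR) in the 10 members and 11 lists of the secretory pathway and of cytosolic chaperones, with the number tested in brackets, filled symbols at an adjusted p under 0.05, and a black bar at the median. List medians lie between −0.42 and 0.09 and that of the 10 members at −0.62, against 0.04 for all genes (dashed), and *Ero1lb* and *Ssr1* are the filled symbols to the right of 0.

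Of 14 sensors and factors of the unfolded protein response 5 fell, none rose, and the median was −0.37. They were *Xbp1*, *Atf4*, the factor that acts after PERK and other stress kinases (−1.05 ± 0.16, adjusted p = 0.00129), its target *Chac1*, which degrades glutathione (−2.02 ± 0.34, 4.05-fold lower, adjusted p = 0.00282), *Herpud1*, a scaffold of ER-associated degradation (−0.66 ± 0.13, adjusted p = 0.0101), and *Eif2ak3*, which encodes PERK (−0.78 ± 0.19, adjusted p = 0.0286). *Chac1* was scarce, at 1.17 to 3.61 CPM in GFPiSMC and 0.29 to 0.96 CPM in Tgfbr1/2iSMCKO libraries. In the CREB3 family with its proteases 1 of 7 fell, and the median was 0.09: *Creb3l2*, the nearest relative of *Creb3l1*, fell by 1.14 ± 0.15 (2.21-fold, adjusted p = 0.000482; with counts summed per animal 0.0319). Of 14 genes of ER-associated degradation, *Herpud1* alone passed, and the median was −0.08 (0.04 when scaled by library size alone). With counts summed per animal, 2 of the 14 genes of the unfolded protein response were called lower (*Atf4* at adjusted p = 0.0374 and *Chac1* at 0.0406 by edgeR). In the degradation list *Herpud1* was then lost (adjusted p = 0.0833), and *Derl3*, named after its value was seen, was called (adjusted p = 0.0422).

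Genes with an ERSE promoter outside the members were looked at in the same way, with the motif chosen when results were known. Of 19 such genes tested, 1 fell (*Dnajc3*), none rose, 14 estimates were negative, and the median was −0.46. *Derl3* (−2.47 ± 0.68), *Pdia6* (−0.53 ± 0.28), and *Creld2* (−0.60 ± 0.33), picked after their values were seen as known ER genes, did not pass over the 12 libraries, although *Derl3* did with counts summed per animal (adjusted p = 0.0422 by edgeR). *Syvn1* (0.38) and *Alg12* (−0.05), ER genes of the same set, did not fall in this way and did not pass either. UPRE genes outside the members gave 10 lower and 3 higher calls of 136 with a median of −0.09, and genes with a CAGA box 2 lower and 2 higher calls of 51 with a median of 0.18. ERSE-II genes gave 1 lower and 0 higher calls of 9 with a median of −0.14. CRE genes gave 12 lower and 5 higher calls of 422 with a median of 0.03. Of all genes tested, 3.23% were called lower and 1.8% higher.

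Chaperones outside the ER moved with genotype as well. Of 20 cytosolic and mitochondrial chaperones 6 fell and none rose, with a median of −0.42, where 3.23% of all genes were called lower. The list includes *Hspa8*, the constitutive cytosolic relative of BiP (−1.12 ± 0.15, 2.17-fold lower, adjusted p = 0.000571), and its cochaperones *Dnaja1* (−0.78 ± 0.15) and *Hsph1* (−1.28 ± 0.26). With counts summed per animal *Hspa8* alone was called (adjusted p = 0.0124 by edgeR). Their summed level was 6098 to 9714 CPM in GFPiSMC and 3936 to 5777 CPM in Tgfbr1/2iSMCKO libraries, without overlap. The heat-inducible *Hspa1a*, named after its values were seen, followed the replicate number: it was at 359 and 338 CPM in GFPiSMC replicate 2 and at 90.2 to 97.0 CPM in the other GFPiSMC libraries, and at 136 and 106 CPM in Tgfbr1/2iSMCKO replicate 2 and at 21.4 to 27.5 CPM in the others. Of 11 immediate early genes, which can rise when cells are handled, 0 passed by edgeR and 5 had an unadjusted p under 0.05, with a median of −0.68 and summed levels of 628 to 2049 CPM in GFPiSMC and 434 to 2175 CPM in Tgfbr1/2iSMCKO. The part of handling in the members' values was not tested.

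Among the marker lists, 1 of 8 smooth muscle markers (*Mylk*, 0.42 ± 0.08, adjusted p = 0.00682) and 1 of 8 endothelial markers (*Cdh5*, 2.97 ± 0.70, adjusted p = 0.025) rose by edgeR. *Cdh5* was scarce, at 0 to 0.51 CPM in GFPiSMC and 0.50 to 2.71 CPM in Tgfbr1/2iSMCKO libraries. None of the 7 fibroblast, 7 macrophage, and 4 lymphocyte and plasma cell markers tested passed, with 0, 2, and 1 at an unadjusted p under 0.05. The list medians were 0.24 for smooth muscle, 0.38 for fibroblast, 0.95 for endothelial, 0.57 for macrophage, and −0.25 for lymphocyte and plasma cell markers.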

How the data were processed

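Bulk RNA-seq of sorted *Myh11* lineage SMCs was used, in 12 libraries. By the study's methods and the submitters' processing notes, the authors aligned trimmed reads with HISAT2 to GRCm38 (mm10) and quantified GENCODE genes with StringTie. The deposited values are whole-number counts per gene, without normalization; counts of 2 (32279) outnumber counts of 1 (22574). Symbols and exon lengths came from GENCODE M21. No column was left unmapped.

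Counts were tested with edgeR 4.0.16 in R 4.3.3 (filterByExpr on the 4 groups, TMM factors, quasi-likelihood F test, Benjamini-Hochberg adjustment over 22320 genes). Segment and genotype were fitted for the main comparison, and 4 group means for all others. Each SE was derived from the estimate and its F statistic. A call is an adjusted p under 0.05; the common biological coefficient of variation was 0.442. DESeq2 1.42.0, limma 3.58.1, other scalings and filters, counts summed per animal, and libraries or animals left out were alternatives. Fits were also run on simulated counts. Those libraries were drawn independently, with no animal effect, segment effect, or GC trend, so they cannot check how the fits handle these. Figures used matplotlib 3.10.9 in Python 3.11.15.

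The labels do not say that libraries with one number come from one mouse. After removal of group means, over 9356 genes, such libraries correlated at 0.184, −0.245, and 0.0287 in GFPiSMC and at 0.0565, 0.377, and 0.665 in Tgfbr1/2iSMCKO. If they share a mouse, the p values over 12 libraries treat the segments of one mouse as independent and measure the spread between libraries. If they do not, the counts summed per animal join libraries of different mice.

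All 10 members are given in every comparison. From each other list, up to 3 genes a direction with the smallest p among those called are named, and others are marked as chosen after their values were seen or complete a count of at most 5. The members and lists were chosen with earlier results of these data known.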

Additional observations from a re-analysis of the deposited data

Results flagged for a closer look

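Of 20 sets of 6 libraries (10 genes in each genotype), 1 held a library that stood apart: *Calr* was at 245 CPM in GFPiSMC ASC replicate 2 and at 380.0 to 483 CPM in the other GFPiSMC libraries, and the gap made up 0.646 of the whole range on the log2 scale, above the 95% critical value of Dixon's ratio for 6 values. Chance gives about 1 such flag in 20 sets. Without this library the log2 fold change of *Calr* was −0.89 (adjusted p = 0.0154 by edgeR).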

How the results depend on the processing

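All 10 genes kept the sign of their genotype effect in 30 alternatives, and the same 6 genes were called in 10 of them, among them DESeq2 and limma-voom with a random animal effect. That animal effect was a single correlation shared by all genes, estimated at 0.158, and not one fitted to each member. The block for the replicate number kept 6 calls. It groups libraries of both genotypes by their number, a pairing that the labels do not give. Counts summed per animal called 0 members over both segments, or 1 (*Calr*) with a GC trend removed. Library size in place of TMM called 2 (*Hsp90b1*, *Sec24d*). It moved the median of all genes by 0.12 and their calls from 721 lower and 402 higher to 505 lower and 699 higher, and the members' median relative to all genes was −0.66 under both scalings. With an animal left out, 0 to 7 were called: 0 without GFPiSMC replicate 3 or Tgfbr1/2iSMCKO replicate 1, 1 without GFPiSMC replicate 1, 2 without Tgfbr1/2iSMCKO replicate 2, 5 without GFPiSMC replicate 2, and 7 without Tgfbr1/2iSMCKO replicate 3. With a single library left out, 2 to 6 were called, and *Canx* and *Sec24d* were called each of the 12 times. Leaving out either segment of GFPiSMC or of Tgfbr1/2iSMCKO replicate 1, GFPiSMC DESC replicate 2, GFPiSMC ASC replicate 3, or Tgfbr1/2iSMCKO ASC replicate 2 left only those 2. In ASC, 1 (*Sec24d*) was called among genes averaging 50 counts or more, and leaving out animals gave 0 to 0; in DESC that gave 0 to 2. The cause of these differences was not tested. Interaction and segment comparisons called 0 members under every alternative run, the block for the animal included.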
